A study of Mus musculus with 6 samples.

Results

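Elastic fibers give tissues their recoil. Tropoelastin, the soluble product of Eln, is laid down on a scaffold of fibrillin microfibrils, and fibulins help to bring elastin, microfibrils and cross-linking enzymes together. Lysyl oxidases are secreted, copper-dependent amine oxidases that oxidise lysines of elastin and collagens, after which these chains become covalently linked. In mammary tumors the same enzymes are known for stiffening the collagen-rich stroma. The genes described here are 10 members of this system, namely Eln, Fbn1, Mfap5, Fbln1, Fbln2, Fbln5, Lox, Loxl1, Loxl2 and Loxl3, chosen by symbol out of 54146 genes in the tables. All 10 were found and all 10 passed the filter on low counts, which left 19900 genes tested.

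The samples were total RNA of 4T1 tumors. 4T1 is a mammary carcinoma line of the mouse. The cells were either wild type or Ki-67-KO, with Mki67, which encodes the proliferation antigen Ki-67, knocked out. Both kinds were placed orthotopically into the mammary fat pad. The hosts in both groups were nude mice, a strain type without a thymus and hence with few mature T cells, and tumors were taken after 3 weeks. There were 3 libraries in each group. The age of the mice and the number of knockout clones are not given in the labels, so a clone and the knockout cannot be told apart. Nothing in the labels says which libraries came from separate mice, so p-values measure the spread between these libraries only.

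Gene counts ranged from 22081970 to 38399826 read pairs per library, with the knockout libraries shallower. Mki67, the targeted gene, was at 325 to 395 CPM (counts scaled to each library's TMM-adjusted total) in wild-type and at 98.7 to 139 CPM in knockout libraries, lower as labelled (log2 fold change -1.61, SE 0.14, adjusted p = 6.79e-05). The epithelial keratins Krt8 and Krt18 were both at 1055 CPM or more in every library. In knockout replicates 2 and 3, 54.6% and 52.7% of pairs were unmapped, against 30.8% to 33.9% in the other 4 libraries. Knockout replicate 2 was the highest of the 3 knockout libraries for 42.7% of all genes tested, and for 10 of the 10 members, so the members' results are given with and without it.

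Members of the lysyl oxidase family share sequence, and their changes differed in direction, so it matters whether reads can be told apart. For each gene 1 transcript was compared, the protein-coding one with the longest coding sequence, and other transcripts were not compared. Between any 2 of Lox, Loxl1, Loxl2, Loxl3 and Loxl4 the longest identical run was 32 bases. Among 6 fibulin genes it was 23 bases, and both runs are shorter than the reads of 50 bases. Loxl2 and Loxl3, which moved in opposite directions, share a longest run of 26 bases in their coding sequences. It is shown within 60 coding bases from GENCODE M21 transcripts (GRCm38), 5′ to 3′ on the coding strand, with capitals for bases that differ from Loxl2. Loxl2 has it at chr14:69689062-69689121 (plus strand), Loxl3 at chr6:83050150-83050209 (plus), Loxl1 at chr9:58293633-58293692 (minus) and Loxl4 at chr19:42598723-42598782 (minus), each within 1 exon.
Loxl2: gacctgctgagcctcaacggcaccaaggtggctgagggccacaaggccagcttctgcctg
Loxl3: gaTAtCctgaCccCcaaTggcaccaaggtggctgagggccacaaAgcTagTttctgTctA
Loxl4: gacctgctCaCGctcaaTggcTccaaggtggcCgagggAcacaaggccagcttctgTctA
Loxl1: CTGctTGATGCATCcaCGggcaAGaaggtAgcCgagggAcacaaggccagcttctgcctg
Loxl3 differed from Loxl2 at 11 of the 60 bases, Loxl4 at 9 and Loxl1 at 19. A read that covers the stretch therefore meets several differences in each gene.

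Most of the 10 genes were higher in the knockout tumors. With edgeR's two-sided quasi-likelihood test and Benjamini-Hochberg adjustment over all genes, 8 of 10 rose, 1 fell (Loxl3) and 1 did not pass (Eln). Over all genes tested, 17.6% were called higher and 18.4% lower. Among the 10056 genes with a mean of at least 10 CPM, a range that includes every member, the shares were 16.8% higher and 27.5% lower. The median log2 fold change of the members was 1.19, beside 0.05 over all genes tested. For 8 members every knockout library lay above every wild-type library, and for Loxl3 every knockout library lay below, while such separation was seen for 24.5% of all genes upwards, 26.0% downwards and 50.5% in either direction.

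**Figure D1:**
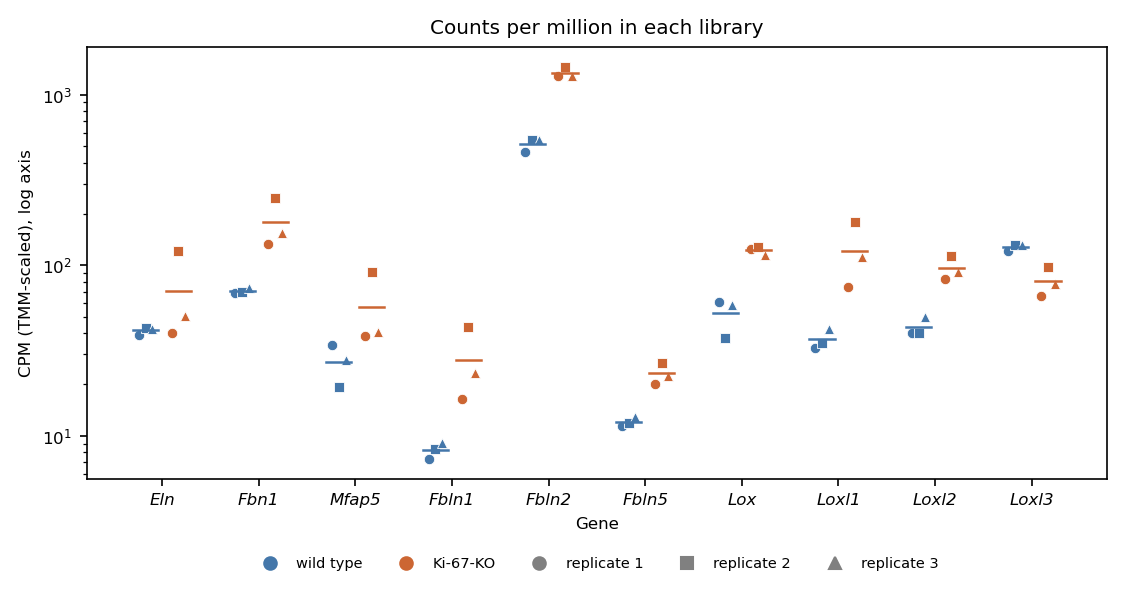
CPM of each gene on a log axis in the 3 wild-type (blue) and 3 Ki-67-KO (orange) libraries, with marker shape for the replicate number and a line at each group's mean. Fbln2 runs from 463 to 544 CPM in wild-type and from 1284 to 1461 CPM in knockout libraries, Loxl3 is the only gene of the 10 whose knockout libraries all lie below the wild-type ones, and Eln overlaps between groups.

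Among the core components, Eln encodes tropoelastin, the elastic core itself (ENSMUSG00000029675, GRCm38 chromosome 5, 134702593 to 134747323, minus strand). Its level was 39.1, 43.1 and 42.3 CPM in wild-type replicates 1, 2 and 3, and 40.3, 122 and 50.4 CPM in knockout replicates 1, 2 and 3. A single knockout library was high, and knockout replicate 1 lay within the wild-type range. The log2 fold change of 0.77 (SE 0.35) did not pass (adjusted p = 0.121), and it was 0.08 (SE 0.11, adjusted p = 0.585) without knockout replicate 2. With knockout replicate 1 alone against wild type, the 4 libraries under 40% unmapped pairs, it was -0.11, and it was 0.01 once the unmapped share entered the fit (adjusted p = 0.988). Eln did pass without knockout replicate 1 (log2 fold change 1.05, edgeR adjusted p = 0.0245) and with the share of pairs outside exons as a covariate (1.23, adjusted p = 0.0220). It also passed with no filter on low counts (0.72, SE 0.14, edgeR adjusted p = 9.06e-06). In that fit Fbn1 and Loxl2 had nearly the same SE, 0.14 each. The last pass therefore hardly reflects the spread of the Eln values between knockout libraries.

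Fibrillin-1, encoded by Fbn1 (ENSMUSG00000027204, chromosome 2, 125300594 to 125507993, minus strand), is the main building block of microfibrils. It was at 68.7, 70.0 and 73.9 CPM in wild-type and at 134, 249 and 154 CPM in knockout libraries. The wild-type values lay close together and all knockout values lay above them. Fbn1 rose 2.52-fold (log2 fold change 1.33, SE 0.21, adjusted p = 0.00166), and by 0.97 on the log2 scale without knockout replicate 2 (adjusted p = 5.42e-05). Exons of Gm9913 on the opposite strand cover 20.1% of the exonic bases of Fbn1, and Gm9913 itself was counted at no more than 0.119 CPM.

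Mfap5 (ENSMUSG00000030116, chromosome 6, 122505845 to 122529290, plus strand) encodes a small glycoprotein that binds fibrillin microfibrils. Wild-type libraries held 34.2, 19.3 and 27.8 CPM and knockout libraries 38.4, 91.4 and 40.6 CPM. The groups did not overlap, but the lowest knockout value lay only slightly above the highest wild-type value. Mfap5 rose 2.09-fold (log2 fold change 1.07, SE 0.34, adjusted p = 0.0390). The call was lost in 8 of 17 alternatives, with adjusted p up to 0.338. Among these were DESeq2 (adjusted p = 0.0580), leaving out any 1 wild-type replicate (edgeR adjusted p 0.0621 to 0.136) and leaving out knockout replicate 2, where the log2 fold change was 0.50 (adjusted p = 0.0632).

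All 3 fibulin members rose. Fibulins are extracellular glycoproteins with calcium-binding EGF-like repeats. Fbln2 (ENSMUSG00000064080, chromosome 6, 91212455 to 91272540, plus strand), a fibulin of basement membranes and elastic matrix, was at 463, 544 and 541 CPM in wild-type and at 1284, 1461 and 1290.0 CPM in knockout libraries. All 3 knockout libraries were high to a like degree. Its rise was 2.61-fold (log2 fold change 1.38, SE 0.11, adjusted p = 4.12e-05), and the log2 fold change stayed between 1.25 and 1.46 over the 17 alternative analyses.

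Fbln1 (ENSMUSG00000006369, chromosome 15, 85205949 to 85286535, plus strand) encodes a fibulin that binds fibronectin and laminin as well as elastic fibers. Its level was 7.29, 8.32 and 9.11 CPM in wild-type and 16.5, 43.6 and 23.2 CPM in knockout libraries. Knockout replicate 2 was the highest by far, and the other knockout libraries were still above all wild-type ones. Fbln1 had the largest log2 fold change of the 10 members, 1.75 (SE 0.32, a 3.36-fold rise, adjusted p = 0.00361). This log2 fold change was 1.21 without knockout replicate 2, past the threshold. With only the libraries under 40% unmapped pairs, which leave knockout replicate 1 alone against wild type, it was 0.93.

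Fbln5 (ENSMUSG00000021186, chromosome 12, 101746565 to 101819055, minus strand) encodes a fibulin that binds elastin and lysyl oxidase-like 1 and is needed for elastic fiber assembly. Its values were 11.3, 11.8 and 12.8 CPM in wild-type and 20.2, 26.9 and 22.5 CPM in knockout libraries. Both groups were tight and apart. Fbln5 rose 1.93-fold (log2 fold change 0.95, SE 0.13, adjusted p = 0.000993), and its log2 fold change was 0.78 without knockout replicate 2.

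Since Fbln1 and Fbln5 both rose, the 250 bases before their RefSeq starts (GRCm38.p6) are shown, 5′ to 3′ on the gene's strand, with capitals for matches to the motifs searched. Of the 10 members 4 had a window in the table (Fbn1, Fbln1, Fbln2 and Fbln5), and windows that touch annotated exons, which include those of Fbn1 and Fbln2 and the second starts of Fbln1 and Fbln5, are not shown. The Fbln1 window is chr15:85205699-85205948 (plus strand) and the Fbln5 window chr12:101819120-101819369 (minus strand).
Fbln1: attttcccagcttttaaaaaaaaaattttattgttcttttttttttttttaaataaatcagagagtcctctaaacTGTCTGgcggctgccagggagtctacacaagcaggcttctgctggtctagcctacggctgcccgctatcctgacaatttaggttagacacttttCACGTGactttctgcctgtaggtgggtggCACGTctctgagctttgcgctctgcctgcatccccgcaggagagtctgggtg
Fbln5: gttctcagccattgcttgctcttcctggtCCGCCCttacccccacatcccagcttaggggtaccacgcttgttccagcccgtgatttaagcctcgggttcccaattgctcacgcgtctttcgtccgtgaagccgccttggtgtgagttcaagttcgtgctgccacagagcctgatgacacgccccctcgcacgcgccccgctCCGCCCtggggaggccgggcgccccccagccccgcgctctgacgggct
Both strands were searched for the SP1 motif GGGCGG, the AP-1 motif TGANTCA, the CArG box, the TATA box TATAAA, the hypoxia response core ACGTG, the E-box CAGGTG and the SMAD element CAGACA. The Fbln1 window held 3 matches to the hypoxia response core, of which 2 overlap as 1 palindrome, and 1 match to the SMAD element on the other strand. The Fbln5 window held 2 matches to the SP1 motif on the other strand, and the 2 windows shown held no searched motif in common. The window of the second Fbln5 start held 1 match to the SMAD element. That of the second Fbln1 start held 1 match to the SP1 motif, beside 3 to the hypoxia response core and 1 to the SMAD element. It overlaps the Fbln1 window shown, and its hypoxia response core and SMAD matches are the same sites. The Fbn1 and Fbln2 windows held 1 match to the SP1 motif each. With the second starts counted, Fbln1 and Fbln5 thus both held the SP1 motif and the SMAD element. Over the 32851 windows of the table, 16.6% held the hypoxia response core, 17.1% the SMAD element and 32.7% the SP1 motif.

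The lysyl oxidases split. Lox, Loxl1 and Loxl2 rose and Loxl3 fell. Lox (ENSMUSG00000024529, chromosome 18), the founding enzyme of the family, was at 61.2, 37.3 and 58.3 CPM in wild-type and 125, 128 and 115 CPM in knockout libraries. Here the knockout libraries were even, and wild-type replicate 2 was the lowest of the 6. Lox rose 2.34-fold (log2 fold change 1.23, SE 0.17, adjusted p = 0.000993), and by 1.15 on the log2 scale without knockout replicate 2.

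Loxl1 (ENSMUSG00000032334, chromosome 9, 58287738 to 58313186, minus strand), the family member most tied to elastin renewal, was at 32.7, 34.8 and 42.5 CPM in wild-type and at 74.9, 179 and 111 CPM in knockout libraries. The knockout values spread widely, and all lay above the wild-type ones. Loxl1 rose 3.31-fold (log2 fold change 1.73, SE 0.28, adjusted p = 0.00201). The log2 fold change was 1.29 without knockout replicate 2, past the threshold. With only the libraries under 40% unmapped pairs, which leave knockout replicate 1 alone against wild type, it was 0.96.

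Loxl2 (ENSMUSG00000034205, chromosome 14, 69609068 to 69695834, plus strand), an enzyme with scavenger receptor cysteine-rich domains that acts on collagen IV, was at 39.9, 39.9 and 50.0 CPM in wild-type and at 83.1, 113 and 91.4 CPM in knockout libraries. All knockout libraries exceeded all wild-type libraries. Loxl2 rose 2.22-fold (log2 fold change 1.15, SE 0.14, adjusted p = 0.000491), and by 0.97 on the log2 scale without knockout replicate 2.

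Loxl3 (ENSMUSG00000000693, chromosome 6, 83034173 to 83052562, plus strand), which shares the domain layout of Loxl2, was at 121, 131 and 131 CPM in wild-type libraries. It was at 66.4, 97.8 and 78.0 CPM in knockout libraries, all below the wild-type range. Loxl3 fell by 0.66 on the log2 scale (SE 0.14, adjusted p = 0.00641), a level 1.58-fold lower in the knockout. Without knockout replicate 2 it fell by 0.87 (adjusted p = 0.000190), and the call was lost with the share of pairs outside exons as a covariate, where it fell by 0.53 (adjusted p = 0.0528). Exons of Htra2 on the opposite strand cover 11.6% of the exonic bases of Loxl3, and pairs over both genes were not counted for either. Htra2 was at 35.5 to 37.0 CPM in wild-type and at 22.2 to 28.6 CPM in knockout libraries.

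**Figure D2:**
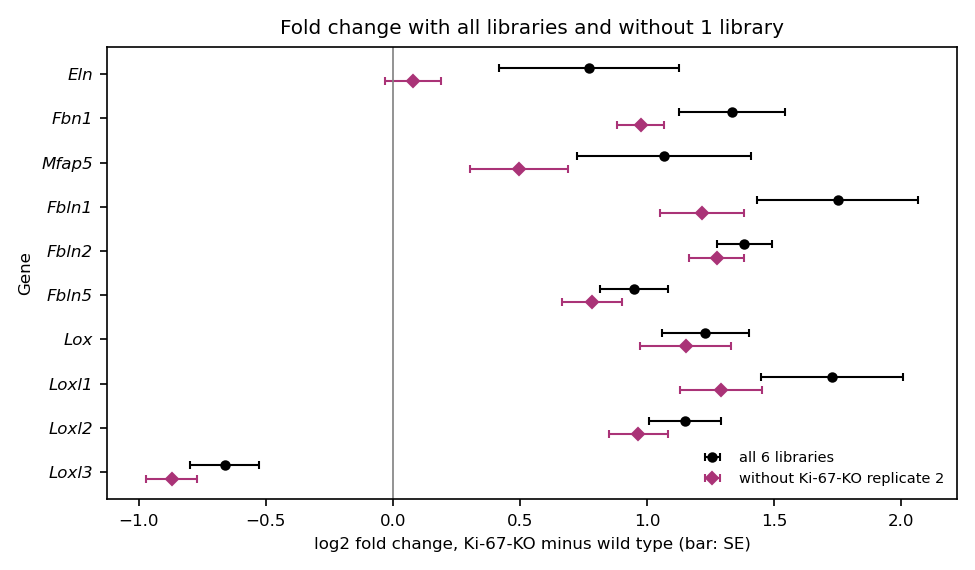
Log2 fold change of each gene, Ki-67-KO minus wild type, with its SE, for all 6 libraries (black circles) and without knockout replicate 2 (purple diamonds). Eln moves from 0.77 to 0.08 and Mfap5 from 1.07 to 0.50, while Fbln2 and Lox stay at 1.27 and 1.15 and Loxl3 stays below 0.

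The remaining family member, Loxl4, an enzyme with the same scavenger receptor domains as Loxl2 and Loxl3, fell with Loxl3. It was at 69.2, 83.9 and 68.7 CPM in wild-type and at 22.7, 24.5 and 28.1 CPM in knockout libraries. Loxl4 fell by 1.56 on the log2 scale (SE 0.12, adjusted p = 3.96e-05) and by 1.59 without knockout replicate 2. To compare genes within a library, counts were divided by exonic length and expressed as a share of the 5 genes' sum, a ratio that does not depend on scaling between libraries. Loxl3 and Loxl4 held 36.8% ± 1.4 and 23.3% ± 3.2 of that sum in wild-type libraries (SD, n = 3), and 17.0% ± 0.43 and 5.9% ± 1.2 in knockout libraries (SD, n = 3). Loxl1 went from 14.7% ± 1.4 to 34.5% ± 7.5 (SD, n = 3 each), Lox from 14.5% ± 3.6 to 25.4% ± 5.2, and Loxl2 from 10.6% ± 0.96 to 17.2% ± 1.0. For each of the 5 genes the groups did not overlap. The two-sided exact permutation p was 0.10 for each, the smallest that 3 against 3 libraries allow, and 0.138 after adjustment over the 11 shares compared.

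The same ratio was taken over 6 fibulin genes. Fbln2 went from 63.3% ± 1.6 to 78.0% ± 2.7 of the fibulin sum (SD, n = 3 each). Efemp2, which encodes fibulin-4, a fibulin needed for elastin and collagen cross-linking, went from 31.3% ± 1.5 to 15.1% ± 0.55 (SD, n = 3 each). Efemp2 itself was at 152 CPM ± 6.4 and 155 CPM ± 20.7 (SD, n = 3 each) and did not pass (log2 fold change 0.03, adjusted p = 0.828). Fbln5 held 1.36% and 1.23% of the sum. The exact permutation p was 0.10 for Fbln2, Efemp2 and Fbln5 (adjusted 0.138), and 0.20, 0.40 and 0.80 for Fbln1, Efemp1 and Fbln7 (adjusted 0.244, 0.44 and 0.80).

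**Figure D3:**
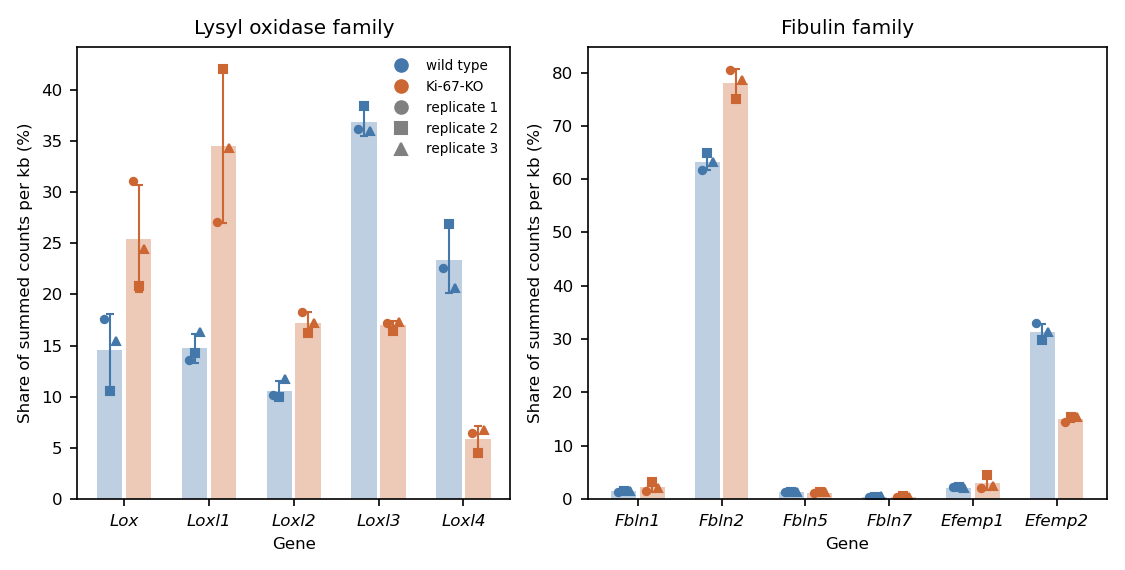
Share of each gene in its family's summed counts per kilobase of exon, in percent, for wild-type (blue) and Ki-67-KO (orange) libraries, as points by replicate over bars for the mean, with SD. Loxl3 and Loxl4 together hold most of the lysyl oxidase sum in wild-type libraries, and Loxl1 and Lox hold most of it in knockout libraries.

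Per kilobase of exon, the order of the 10 genes in wild-type libraries ran from Fbln2, at 81.0 CPM per kb ± 7.2 (SD, n = 3), through Loxl3 at 27.7 ± 1.2, Loxl1 at 11.1, Lox at 10.9, Loxl2 at 8.0, Mfap5 at 7.6, Fbn1 at 5.8, Eln at 5.1 and Fbln1 at 1.9 to Fbln5 at 1.7 CPM per kb. The library ranges of neighbours overlapped from Loxl1 down to Fbn1 and again between Fbln1 and Fbln5. In knockout libraries the order was Fbln2, at 211 CPM per kb ± 15.8 (SD, n = 3), Loxl1 at 36.9 ± 16.0, Lox at 25.6, Loxl2 at 17.7, Loxl3 at 17.5, Mfap5 at 15.8, Fbn1 at 14.7, Eln at 8.8, Fbln1 at 6.4 and Fbln5 at 3.4 CPM per kb. Apart from Fbln2 over Loxl1 and Lox over Loxl2, neighbours in that order overlapped over the knockout libraries. Loxl3 was in the second place in wild-type and in the fifth in knockout libraries. The lengths include exonic bases shared with other genes, where pairs over both genes are not counted. These shared bases are 20.1% for Fbn1, 11.6% for Loxl3 and 5.7% for Loxl2, so places of genes close in level are uncertain.

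The members differed in how evenly the knockout libraries rose. Relative to the mean of knockout replicates 1 and 3, knockout replicate 2 was 2.69-fold for Eln, 2.31-fold for Mfap5, 2.20-fold for Fbln1, 1.92-fold for Loxl1 and 1.73-fold for Fbn1. The same ratio was 1.35 for Loxl3, 1.30 for Loxl2, 1.26 for Fbln5, 1.13 for Fbln2 and 1.07 for Lox. The summed markers of some other cell types, though not of all, were also highest in knockout replicate 2. The summed level of 10 fibroblast markers was 487 to 541 CPM in wild-type libraries and 652, 1094 and 701 CPM in knockout replicates 1, 2 and 3. Of these markers 7 rose and 1 fell, with Dcn rising 1.62-fold and Thy1 2.09-fold. The marker that fell was Pdgfra, by 0.68 on the log2 scale (edgeR adjusted p = 0.00304), and Dpp4 and Col15a1 did not pass. The sum of 10 smooth muscle and pericyte markers was 154 to 194 CPM in wild-type and 381, 650 and 460 CPM in knockout libraries, and 8 of 10 rose, with Acta2 at a 3.55-fold rise. For 8 adipocyte markers the sum was 89.3 to 136 CPM against 340, 942 and 427 CPM, and 8 of 8 rose. For 8 keratinocyte markers it was 79.8 to 139 CPM against 983, 1698 and 745 CPM, and 8 of 8 rose. Krt14 alone held 815, 1009 and 630 CPM in knockout replicates 1, 2 and 3, so the knockout sums were mostly Krt14. The values of Krt10, although called higher, overlapped between groups. The sum of 9 endothelial markers was 306 to 418 CPM against 309, 432 and 372 CPM, with 1 of 9 higher. Skeletal muscle markers summed to 40.4 to 49.5 CPM against 52.4, 64.1 and 64.4 CPM, with 5 of 7 tested higher and Tnnc2 at 0 in every library. Epithelial markers summed to 2853 to 2962 CPM against 6293, 6083 and 5856 CPM, with 6 of 7 higher and Krt8 not called. Beside these counts, 17.6% of all genes tested were called higher and 18.4% lower. The endothelial count, 11.1% of its list, was no larger than the share over all genes. None of the 45 fibroblast, smooth muscle, adipocyte, keratinocyte and endothelial markers was at 0 in any library, and the part of these lists in the members' changes was not tested. A change in the number of cells of a type and a change in RNA per cell cannot be told apart in bulk tumors.

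**Figure D4:**
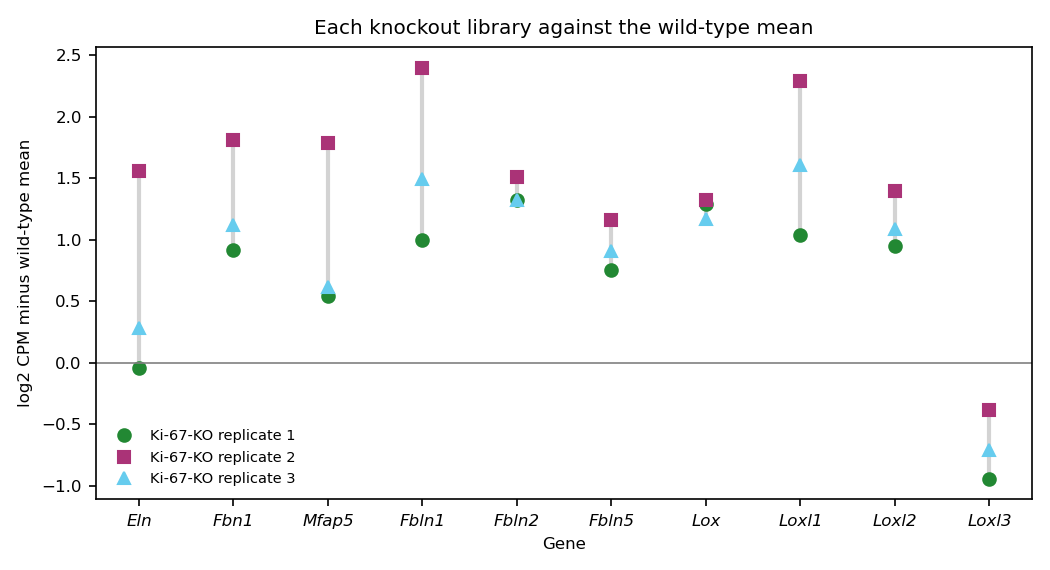
Log2 CPM of each knockout library minus the wild-type mean, for each of the 10 genes, with a grey bar from the lowest to the highest library. Replicate 2 (purple squares) is highest for all 10 genes, with wide bars for Eln, Mfap5, Fbln1 and Loxl1 and narrow bars for Fbln2 and Lox.

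Profiles over the 6 libraries were compared as the root mean square distance between log2 CPM values, each centred on its own mean. Among the 10 members the closest pair was Fbln1 and Loxl1, at a distance of 0.080, followed by Fbln5 and Loxl2 at 0.12. Over 13024 protein-coding genes with a mean of at least 1 CPM, Loxl1 was also the nearest gene to Fbln1, and Fbln1 the nearest to Loxl1. Cpz, which encodes a secreted carboxypeptidase, came next for both, at 0.107 and 0.098. The nearest genes to Fbn1 were Ehd3, Psg17 and Mgll, and those near Fbln2 included Cblc and Baiap2l1. Those near Fbln5 included Nedd4l and Fam198b. Loxl2 was nearest to Cacna2d1 and Fam102a, and Lox to Tfpi2, Lrrc8e and Padi1. Eln was nearest to Vegfd, Has3 and Clec10a, Mfap5 to Ccl11, H2afy2 and Fzd8, and Loxl3 to Wdr81 and Arid3b. These distances rest on 6 libraries in 2 groups and describe likeness only.

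Other genes of the pathway did not move as a block. Paired levels of these genes are wild-type and then knockout means ± SD over 3 libraries. Of 74 listed genes 72 were tested, and 28 rose, 16 fell and 28 did not pass. That is 61.1% called, where 36.0% of all genes tested were called in either direction, 17.6% higher and 18.4% lower. Among genes with a mean of at least 10 CPM, 44.3% were called, though some of the 72 genes lie below that level. The lists were chosen with earlier results of these data known. The median log2 fold change of the 72 genes was 0.15, beside 0.05 over all genes. The number that rose was 16 without wild-type replicate 1 or wild-type replicate 2 and 18 with the unmapped share as a covariate.

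Microfibril and assembly genes split, 5 higher and 6 lower of 15. Fbn2, a second fibrillin, rose 3.48-fold, at 3.37 ± 0.29 and 11.8 ± 3.5 CPM (adjusted p = 0.000644), and Mfap2, a microfibril glycoprotein related to Mfap5, rose 3.09-fold, at 5.45 ± 0.53 and 16.9 ± 5.0 CPM. Ltbp1, a latent TGF-beta binding protein anchored on microfibrils, fell by 0.64 on the log2 scale, at 375 ± 18.3 and 241 ± 13.5 CPM (adjusted p = 0.000968). Adamtsl4, a fibrillin-binding protein, fell by 1.11. Mfap4, Ltbp2, Ltbp4 and Emilin2 were picked after their values were seen. Mfap4 rose 4.03-fold, while Ltbp2, Ltbp4 and Emilin2 fell by 0.48, 0.77 and 0.87 on the log2 scale.

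Of the 5 other fibulin family genes, 3 rose and none fell. Hmcn2, a hemicentin with a fibulin-type end, rose 5.04-fold at 1.32 ± 0.26 and 6.66 ± 1.5 CPM, and Efemp1, which encodes fibulin-3, rose 3.03-fold (log2 fold change 1.60, adjusted p = 0.00717). Without knockout replicate 2 the log2 fold change of Efemp1 was 0.99 (edgeR adjusted p = 0.000829), and it was 0.82 with only the libraries under 40% unmapped pairs. Once the share of unmapped pairs entered the fit, Efemp1 missed the threshold (log2 fold change 0.93, adjusted p = 0.0644). Fbln7 rose 2.23-fold (adjusted p = 0.0172), a call lost in 4 alternatives. These were without wild-type replicate 1 or 2 (edgeR adjusted p = 0.0852 and 0.0804), with the unmapped covariate (0.103) and with only the libraries under 40% unmapped pairs. Hmcn1, at means of 3.36 and 4.20 CPM, missed the threshold (adjusted p = 0.153).

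Among 8 genes that supply or process lysyl oxidases, 2 rose and 2 fell, the latter being Loxl4 and Atp7a. That is 50% called, beside 36.0% of all genes tested and 44.3% of those with a mean of at least 10 CPM. Bmp1, the protease that removes the propeptide of Lox, rose 1.78-fold, at 624 ± 40.6 and 1113 ± 195 CPM (adjusted p = 0.00198). Atp7a, the copper transporter that loads secreted copper enzymes, fell by 1.10 on the log2 scale, at 30.8 ± 0.64 and 14.4 ± 4.9 CPM (adjusted p = 0.00413). Pcolce, an enhancer of Bmp1, rose 1.32-fold (adjusted p = 0.0401), a call lost when any 1 library other than knockout replicate 1 was left out (edgeR adjusted p 0.0788 to 0.193). It was also lost with no filter (log2 fold change 0.32, adjusted p = 0.111) and the unmapped covariate (0.19, adjusted p = 0.276). With only the libraries under 40% unmapped pairs the log2 fold change of Pcolce was 0.11. Of 9 cross-linking substrates and lysyl hydroxylases, the 5 fibrillar collagen genes rose and the remaining 4 did not pass. Col1a1 rose 2.81-fold to 1941, 4615 and 2975 CPM in the knockout libraries, and Col1a2, Col5a2 and Col3a1 rose 2.26-fold, 2.02-fold and 1.72-fold. The Col3a1 call was lost without wild-type replicate 1 or 2 (edgeR adjusted p = 0.0871 and 0.0878) and with the unmapped covariate (log2 fold change 0.41 against 0.78, adjusted p = 0.172). Its log2 fold change was 0.44 without knockout replicate 2, past the threshold. It was 0.32 with only the libraries under 40% unmapped pairs, which leave knockout replicate 1 alone against wild type. For Col1a1 the last of these gave 0.71, against 1.49.

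Elastases and their inhibitors were 6 higher and 3 lower of 11 tested. Mmp9, a gelatinase that also cleaves elastin, rose 22.8-fold, at 56.7 ± 5.6 and 1290.2 ± 379 CPM (adjusted p = 3.97e-06), and Ctsk, an elastolytic cathepsin, rose 1.90-fold. Ctss and Ctsl, further elastolytic cathepsins, fell by 1.49 and 1.61 on the log2 scale. Exons of other genes cover 26.8% of the exonic bases of Ctsl, so its count is uncertain. The macrophage marker list moved with them: 7 of 7 macrophage markers fell, where 18.4% of all genes tested were called lower. The sum of these markers was 4755 to 5547 CPM in wild-type and 733 to 816 CPM in knockout libraries. Whether this bears on the cathepsins was not tested. Mmp7 had 0 counts in every library, which allows up to 0.0781 to 0.136 CPM, and Elane was too low to test.

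Elastin and fibrillin receptor genes were 5 higher and 2 lower of 11. Itgb6, the beta chain of an epithelial integrin that binds latent TGF-beta, rose 32.0-fold, at 0.432 ± 0.14 and 13.9 ± 1.0 CPM (adjusted p = 3.83e-06), and Itga8 rose 4.52-fold. Neu1, the sialidase of the elastin receptor complex, fell by 0.80 on the log2 scale, and Lgals3, galectin-3, rose 1.55-fold. Of 13 transcriptional and growth factor regulators, 2 rose, 3 fell and 8 did not pass. The share called in this list, 38.5%, was near the 36.0% over all genes tested. It was below the 44.3% of genes with a mean of at least 10 CPM. Ccn2, a matricellular TGF-beta target, rose 3.26-fold, at 65.6 ± 8.9 and 214 ± 27.9 CPM (adjusted p = 4.53e-05), and Tgfb2, a TGF-beta ligand, rose 3.12-fold. Smad3, a mediator of TGF-beta signals, and Tgfbr2, a TGF-beta receptor, fell by 0.60 and 0.51. The Tgfbr2 call was lost without wild-type replicate 2 or knockout replicate 3 (edgeR adjusted p = 0.0653 and 0.0572), or with the share of pairs outside exons as a covariate (0.0955). Of the exonic bases of Ccn2, 23.2% overlap other genes.

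**Figure D5:**
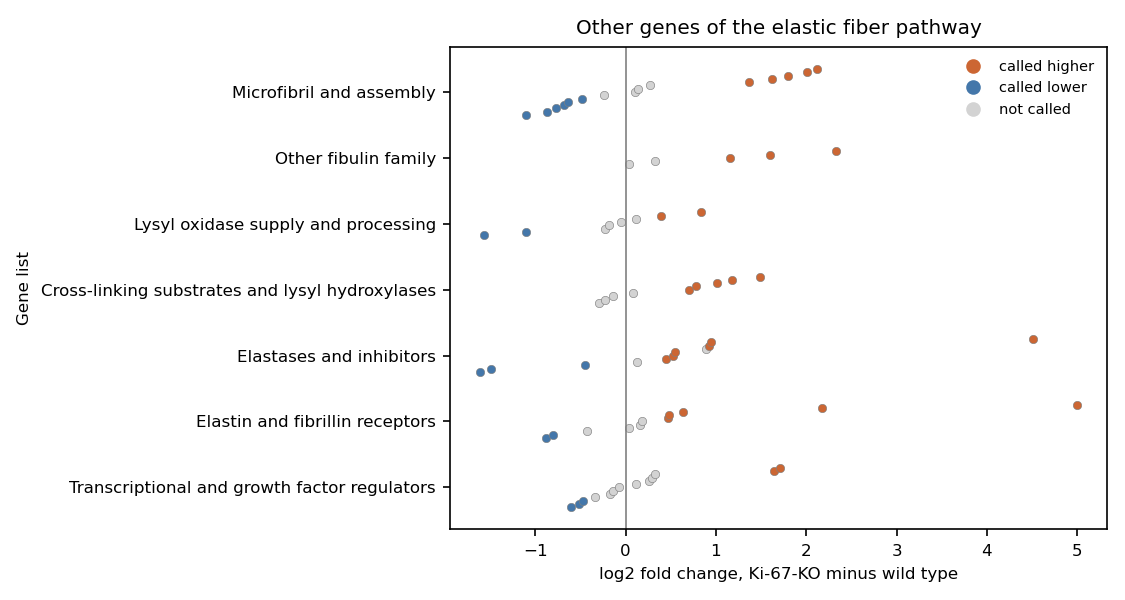
Log2 fold change, Ki-67-KO minus wild type, of the 72 tested genes in the 7 lists, 1 point per gene, orange for called higher, blue for called lower and grey for not called. The 5 fibrillar collagen genes and 3 of 5 other fibulins are called higher, and microfibril and assembly genes lie on both sides.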

How the data were processed

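Tumor RNA was measured in 3 wild-type and 3 Ki-67-KO libraries. The authors deposited raw gene counts, whole numbers of pairs with no normalization, with 1 unstranded and 2 stranded columns and 4 rows that name no gene, which held 45.2% to 66.5% of all pairs and were left out. STAR 2.6.0c, FastQC, DESeq2 and GRCm38 are named per the submitters' processing notes. The stranded columns held equal shares, so the unstranded column was used, and a gene and its antisense partner cannot be separated. Of 54146 identifiers, 54079 matched GENCODE M21 (GRCm38), which gave symbols, positions and exonic lengths.

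The test was edgeR's, version 4.0.16 under R 4.3.3 (filterByExpr, TMM, estimateDisp, glmQLFit, glmQLFTest), adjusted over 19900 genes, at a threshold of 0.05 on the adjusted p. The SE is the log2 fold change over the square root of F. The log2 CPM values used a prior count of 2. A count of 0 allows 3 counts, counting error only. Groups and replicate numbers came from titles.

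The members and lists were chosen with earlier results of these data known. Named genes are the members, up to 4 genes of smallest p per list, the 2 most abundant markers per marker list and the 3 nearest profiles per member. Some of these nearest profiles are not reported here. The alternatives were DESeq2 1.42.0, other scalings, filters and columns, a robust fit, each replicate left out, a replicate block, and covariates or limits on unmapped or outside-exon pairs.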

Additional observations from a re-analysis of the deposited data

How the results depend on the processing

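Members rising numbered 7 to 9 over the 17 alternatives, against 8, and 1 fell in all but 1 of them. With the share of pairs outside exons as a covariate the number of members lower was 0. Pathway genes higher numbered 28, and 18 with the unmapped share as a covariate. Leaving out 1 replicate at a time gave 16 to 29 pathway genes higher. Eln had a log2 fold change of -0.11 with only libraries under 40% unmapped pairs, against 0.77. The Fbln7 share of the fibulin sum changed sign, from 0.016 percentage points to -0.0064 without division by exonic length, and to -0.041 at the lowest and 0.066 at the highest with 1 replicate left out. The replicate number as a block gave 7 members higher and 1 lower, and 27 pathway genes higher and 17 lower. Same-numbered libraries deviated with correlations of 0.053, -0.21 and -0.24. No knockout library correlated best with the wild-type library of its own number. With 3 libraries per group these correlations depend on one another, so they cannot decide whether the number pairs libraries.

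DESeq2 gave 7 members higher and 1 lower. Over 38 named genes and 17 alternatives each, 28 calls were lost, of which Mfap5 and Pcolce had 8 each. Fbn1, Fbln1, Fbln2, Fbln5, Lox, Loxl1, Loxl2 and Loxl4 kept their direction in all 17 alternatives and passed in each that held more than 1 knockout library. The cause was not tested. Arms of 2 libraries, or 1 knockout library under the 40% limit, are assumed to vary like the other group. Knockout libraries differed more from each other, with a chi-square of counts per gene of 23.9 to 71.3 between pairs. Between wild-type pairs it was 8.21 to 10.9. A fit with 1 knockout library therefore does not measure the spread between knockout libraries.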
